A study of Mus musculus with 72 samples.

Results

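The 8 genes described here encode transcription factors that set or keep the identity of pituitary cells, namely Pou1f1, Pitx1, Tbx19, Nr5a1, Lhx3, Gata2, Neurod1 and Sox2. They were chosen by name as 8 of the 55416 genes counted, and all 8 were found in the counts by their Ensembl identifier. The pituitary is built from progenitor cells that take on 1 of several hormone-producing fates. Pitx1 and Lhx3 act early and in most lineages, while Sox2 marks the stem and progenitor cells. Pou1f1 is needed for somatotropes, lactotropes and thyrotropes, Tbx19 and Neurod1 act in corticotropes, and Nr5a1 and Gata2 act in gonadotropes, Gata2 also in thyrotropes.

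RNA from whole pituitaries, epididymal white adipose tissue (eWAT) and liver of 24 male FVB.129P2 mice was sequenced in 72 libraries. FED mice were born to dams that ate freely, and CR20 mice to dams given 20% less food than a paired FED dam from embryonic day 15. The restriction lasted until weaning at postnatal day 21. From 8 weeks of age the offspring were kept for 10 weeks, by the methods of the study, on food with either 10% fat, named CTRL, or 45% fat, named HFD. Each of the groups FED-CTRL, FED-HFD, CR20-CTRL and CR20-HFD held 6 different mice. Pups of a dam were split over both diets, and the sources used here do not say which mice shared a dam, so p-values measure the spread between these mice and leave litters out.

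Pituitary libraries held 18299494 to 27601208 counts, with a TMM scaling factor of 0.893 to 1.09. Gh, the growth hormone gene, took 20.7% to 32.9% of a pituitary library's counts and at most 0.00204% of a library of another tissue. One FED-HFD pituitary library (mouse 10) had 27.0 CPM (counts scaled to the library's total, TMM-adjusted) summed over the adipose markers Adipoq, Lep and Plin1, against at most 0.850 CPM in the other 23. The pituitary was measured as a whole, so fewer cells of a type and less RNA per cell cannot be told apart.

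The promoter windows of the members differed in base content and in the motif letters they held. The RefSeq promoter table (GRCm38.p6) matched 6 of the 8 members, all but Pitx1 and Nr5a1. The 250 bases before the first listed start were searched on both strands for letters that the 8 factors are known to bind, each factor with its own. Pou1f1 was searched as TATNCAT, Pitx1 as TAATCC, Tbx19 as TCACACC, Nr5a1 as AAGGTCA, Lhx3 as TAATTA and Sox2 as ACAANG. Gata2 was searched as AGATAA or else as AGATAG, as TGATAA or else as TGATAG, and Neurod1 as CAGATG or else as CATATG. The windows of Pou1f1, Neurod1 and Sox2 each held letters of their own factor. Of these Pou1f1 is shown because it held the most matches, Tbx19 because it held those of Lhx3 and Gata2, and Gata2 because its level moved together with that of Pitx1 over mice. They lie at chr16:65520262-65520511 (plus strand), chr1:165160774-165161023 (minus strand) and chr6:88193641-88193890 (plus strand). They are given 5′ to 3′, with matches in capitals.
Pou1f1: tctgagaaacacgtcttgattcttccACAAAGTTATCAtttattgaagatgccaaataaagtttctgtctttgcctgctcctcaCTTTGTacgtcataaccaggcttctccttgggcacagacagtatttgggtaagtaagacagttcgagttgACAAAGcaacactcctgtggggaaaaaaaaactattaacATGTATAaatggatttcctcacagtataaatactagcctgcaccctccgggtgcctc
Tbx19: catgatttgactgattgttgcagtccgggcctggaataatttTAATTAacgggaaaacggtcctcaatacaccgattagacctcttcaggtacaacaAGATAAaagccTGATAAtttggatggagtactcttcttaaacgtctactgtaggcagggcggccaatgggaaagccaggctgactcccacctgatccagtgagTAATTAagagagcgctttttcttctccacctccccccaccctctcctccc
Gata2: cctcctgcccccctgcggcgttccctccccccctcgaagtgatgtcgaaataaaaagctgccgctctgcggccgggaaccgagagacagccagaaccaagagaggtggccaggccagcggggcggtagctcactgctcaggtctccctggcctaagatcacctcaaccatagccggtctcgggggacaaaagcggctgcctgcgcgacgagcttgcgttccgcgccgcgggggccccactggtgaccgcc

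The window of Pou1f1 held 5 matches. One, ATGTATA at positions -57 to -51 from the start, reads TATNCAT on the other strand, and 8.16% of 27025 promoters of the same length held that motif. The other 4 were 3 matches to ACAANG, which 36.6% of promoters held, and 1 to TGATAA, which 8.16% held, with the ACAANG match at -224 to -219 directly before the TGATAA match at -218 to -213. The window of Tbx19 held TAATTA at 2 places (4.9% of promoters) and 1 match each to AGATAA (10.3%) and TGATAA (8.16%). The windows of Gata2 and Lhx3 held no match. Those of Neurod1 and Sox2 held 1 match each, CATATG (3.47% of promoters) and ACAAAG. The GC content of the windows ran from 41.2% for Pou1f1 and 47.6% for Tbx19 to 67.2% for Gata2 and 72% for Sox2. A match here is a description of the letters and not a bound site.

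All 8 factors were detected in every pituitary library. On the scale of CPM per kb of exon, Pitx1 had the highest level, 78.7 ± 10.6 (SD, n = 24 mice), followed by Lhx3 at 53.6 ± 5.78. Lhx3 stood below Pitx1 in 24 of 24 mice. Tbx19 (31.9 ± 3.51) and Pou1f1 (25.5 ± 3.36) came next, with Tbx19 the higher in 21 of 24 mice. Gata2 (10.0 ± 1.67), Sox2 (10.0 ± 1.499) and Nr5a1 (9.72 ± 1.31) could not be ordered, since Gata2 was above Sox2 in 9 of 24 mice and Sox2 above Nr5a1 in 13 of 24. Neurod1 was lowest at 0.547 ± 0.177, below every other member in every mouse, though a gene that overlaps it may affect its counts. With the length of the longest transcript in place of all exons, Pou1f1 moved above Tbx19 and Nr5a1 above Sox2, while the other ranks were the same.

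**Figure D1:**
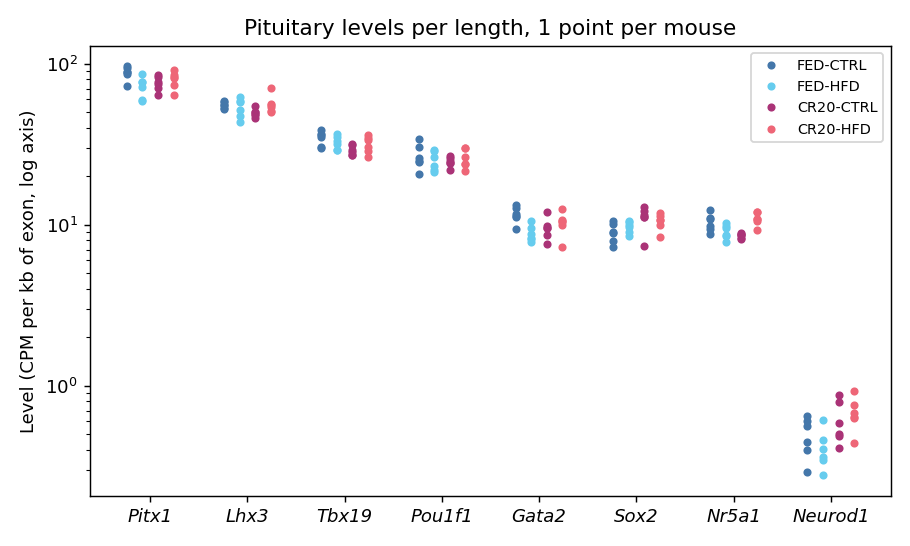
Level of each factor in CPM per kb of exon (log axis) in the 24 pituitary libraries, 1 point per mouse, coloured by group. Pitx1 sits highest (58.2 to 96.2), the points of Gata2, Sox2 and Nr5a1 share 1 range, and Neurod1 lies below 1 CPM per kb in every mouse.

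The other tissues carried little RNA of these genes except for Gata2, a factor also known in blood and fat precursor cells. In eWAT, 7 of the 8 members had at most 6 counts in any of 24 libraries, and in liver at most 1. Neurod1 and Sox2 had 0 counts in all 24 liver libraries. A count of 0 allows 3 counts, which in the shallowest liver library is 0.305 CPM, so the median pituitary level of Sox2 (21.0 CPM) was at least 69.0-fold higher and that of Neurod1 (1.61 CPM) at least 5.28-fold higher than liver. Gata2 had a median of 79.1 CPM in pituitary, 4.86 CPM in eWAT and 0.667 CPM in liver.

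Each member overlaps another annotated gene, and the counting's strand setting is not given in the sources used here, so reads of the pairs may be shared. The overlapping genes had few counts for most members. Nr5a1os, antisense to Nr5a1, had a median of 37.5 counts per pituitary library against 1871.5 for Nr5a1, and Gm49631 had 8 against 1930.5 for Pou1f1. Neurod1 was the exception, because Cerkl on the same strand had a median of 22.5 counts and Neurod1 itself only 35.5. The exons of the 2 genes overlap, and the sources used here do not say how reads in both were counted. The level of Neurod1 may therefore be too low or too high.

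The 4 comparisons asked how the dam's restriction changed the offspring on each diet and how the HFD changed the offspring of each kind of dam. Comparisons between dams on CTRL or on HFD give CR20 over FED, and comparisons between diets in FED or in CR20 mice give HFD over CTRL. The interaction is the log2 fold change (log2FC) of the HFD in CR20 mice minus that in FED mice. The quasi-likelihood test of edgeR was used, and a gene counted as called where its adjusted p-value was below 0.05. None of the 8 members was called in any of the 7 pituitary contrasts, and nearly no other gene was. Of 16657 tested genes, 0% were called in the 4 comparisons, the interaction and the maternal effect averaged over diets, and 0.024% in the diet effect averaged over dams. The limma voom fit with quality weights called 284 genes between dams on CTRL, 1 in the averaged diet effect and 0 in the other 5 contrasts, none of them a member. Values are therefore given with unadjusted p-values as a description, and no member is said to have risen or fallen.

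At an unadjusted p-value under 0.05, 5 of 8 members stood out between dams on CTRL (17.3% of all genes), 3 between diets in FED mice (9.64%), 2 between dams on HFD (6.77%) and 2 between diets in CR20 mice (7.28%). For the interaction it was 4 (11% of all genes), for the averaged maternal effect 3 (13.2%) and for the averaged diet effect 0 (6.23%). The DESeq2 Wald test called 1 member, Nr5a1, between dams on CTRL (adjusted p = 0.0323, 371 genes called in all) and again in the interaction (adjusted p = 0.0321, 2 genes called in all).

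The signs of the differences had a shape that several members shared. The log2FC was below 0 for 6 of 8 members between dams on CTRL (median -0.19, all genes 0.0063) and for 7 of 8 between diets in FED mice (median -0.14, all genes 0.00050). It was above 0 for 7 of 8 between diets in CR20 mice (median 0.11, all genes -0.016) and between dams on HFD (median 0.14, all genes 0.0025). The interaction was above 0 for 7 of 8, with a median of 0.30 against -0.016 over all genes. These comparisons share groups, so their values are not independent of each other.

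**Figure D2:**
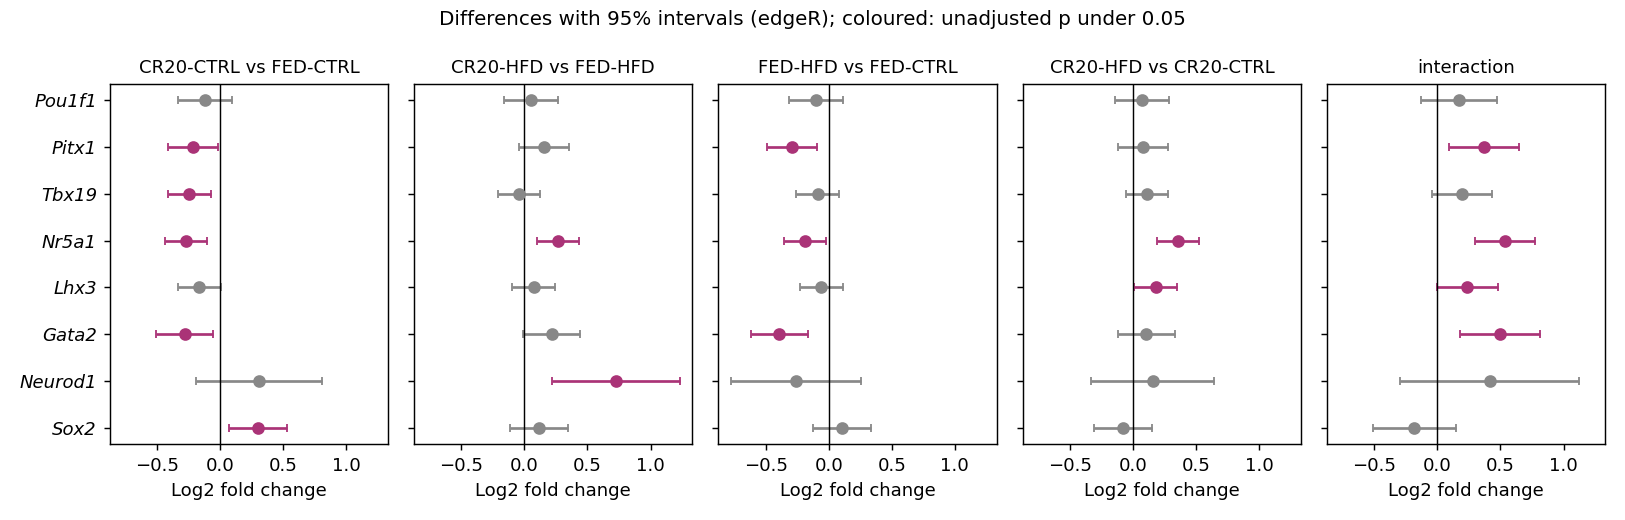
Log2FC with its 95% interval (edgeR, 6 mice per group) for each factor in the 4 pituitary comparisons and the interaction. Coloured points have an unadjusted p-value under 0.05, and none passed the adjustment over 16657 genes. The intervals were built apart from the test and run slightly wider. That of Lhx3 in the interaction includes 0 though its point is coloured. Nr5a1 lies below 0 between dams on CTRL and between diets in FED mice, and above 0 in the other 3 panels.

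Nr5a1 (ENSMUSG00000026751, GRCm39 chromosome 2, 38581468 to 38604642, minus strand), the nuclear receptor of gonadotropes, had the smallest p-value of the members in 4 of the 7 contrasts, namely between dams on either diet, between diets in CR20 mice and in the interaction. Between diets in FED mice and in the averaged diet effect it was Gata2, and in the averaged maternal effect Neurod1. Its lowest, median and highest levels were 77.0, 91.1 and 109 CPM in FED-CTRL and 69.4, 80.1 and 90.6 CPM in FED-HFD. They were 72.4, 76.4 and 78.4 CPM in CR20-CTRL and 81.9, 96.1 and 107 CPM in CR20-HFD. Every CR20-HFD mouse was thus above every CR20-CTRL mouse, while the other 3 comparisons overlapped.

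The log2FC of Nr5a1 between diets in CR20 mice was 0.35 (SE 0.08, 95% interval 0.19 to 0.52, adjusted p = 0.499 by edgeR), and its p-value ranked 3 among 16657 genes. The exact two-sided permutation test gave p = 0.00216, the smallest that 6 against 6 mice allow. Over the 7 planned and added alternatives the adjusted p-value ran from 0.0982 to 0.524. Of all tested genes, 0.408% had groups that did not overlap in this comparison. The shares were 0.738%, 0.27% and 0.384% between dams on CTRL, between dams on HFD and between diets in FED mice, where no member's groups separated.

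In the other direction, Nr5a1 was 0.27 lower on the log2 scale in CR20-CTRL than in FED-CTRL (SE 0.08, adjusted p = 0.109 by edgeR). It was 0.27 higher in CR20-HFD than in FED-HFD (SE 0.08, adjusted p = 0.491 by edgeR) and 0.18 lower in FED-HFD than in FED-CTRL (SE 0.08, adjusted p = 0.444 by edgeR). The interaction was 0.54 (SE 0.11, 95% interval 0.30 to 0.77, adjusted p = 0.314 by edgeR), and its p-value ranked 2. Averaged over diets, the maternal effect was -0.0024 (95% interval -0.12 to 0.12), since the difference on 1 diet was nearly the opposite of that on the other. Without FED-CTRL mouse 42, which had the lowest level of its group, the difference of CR20-CTRL from FED-CTRL was -0.32 with an adjusted p of 0.031 by edgeR. The number of genes called in that fit is not given here. Over the mice left out in turn, the adjusted p of Nr5a1 in this comparison ran from 0.031 to 0.249 by edgeR. The lowest was 0.054 for Tbx19, 0.0625 for Sox2 and 0.075 for Gata2, and 0.107 to 0.352 for the other members.

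Gata2 (ENSMUSG00000015053, chromosome 6, 88170559 to 88184018, plus strand), the zinc-finger factor of gonadotropes and thyrotropes, was highest in FED-CTRL. Its lowest, median and highest levels were 75.0, 91.9 and 106 CPM in FED-CTRL, 62.6, 68.3 and 84.2 CPM in FED-HFD, 60.5, 76.8 and 96.7 CPM in CR20-CTRL and 58.5, 84.3 and 100.1 CPM in CR20-HFD. FED-HFD was the lowest group by its median, and all groups overlapped.

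The log2FC of Gata2 between diets in FED mice was -0.39 (SE 0.11, 95% interval -0.62 to -0.17, adjusted p = 0.207 by edgeR), with an exact permutation p of 0.00649. Between dams on CTRL it was -0.28 (SE 0.11, adjusted p = 0.186 by edgeR). The interaction was 0.50 (SE 0.15, 95% interval 0.18 to 0.81, adjusted p = 0.324 by edgeR).

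Pitx1 (ENSMUSG00000021506, chromosome 13, 55972864 to 55984005, minus strand), the homeodomain factor of the early gland, showed the same order of group medians. They were 236 CPM in FED-CTRL (range 193 to 255), 198 CPM in FED-HFD (155 to 228), 201 CPM in CR20-CTRL (169 to 226) and 219 CPM in CR20-HFD (169 to 244). In FED-CTRL, 5 of 6 mice were above all 6 CR20-CTRL mice, and the exception, mouse 42 at 193 CPM, lay within the range of CR20-CTRL. Its log2FC was -0.29 between diets in FED mice (SE 0.10, adjusted p = 0.293 by edgeR) and -0.21 between dams on CTRL (SE 0.09, adjusted p = 0.248 by edgeR). The interaction was 0.37 (SE 0.13, 95% interval 0.089 to 0.65, adjusted p = 0.347 by edgeR).

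Lhx3 (ENSMUSG00000026934, chromosome 2, 26090224 to 26098301, minus strand), a LIM-homeodomain factor of the hormone cells, had medians of 168, 166, 150 and 166 CPM in FED-CTRL, FED-HFD, CR20-CTRL and CR20-HFD. Its log2FC was 0.18 between diets in CR20 mice (SE 0.08, adjusted p = 0.663 by edgeR) and 0.24 in the interaction (SE 0.12, adjusted p = 0.452 by edgeR). Both leaned on CR20-HFD mouse 7, the highest library at 214 CPM, and were 0.10 and 0.16 without it. The group SD of the log2 level ran from 0.07 in FED-CTRL to 0.20 in FED-HFD.

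**Figure D3:**
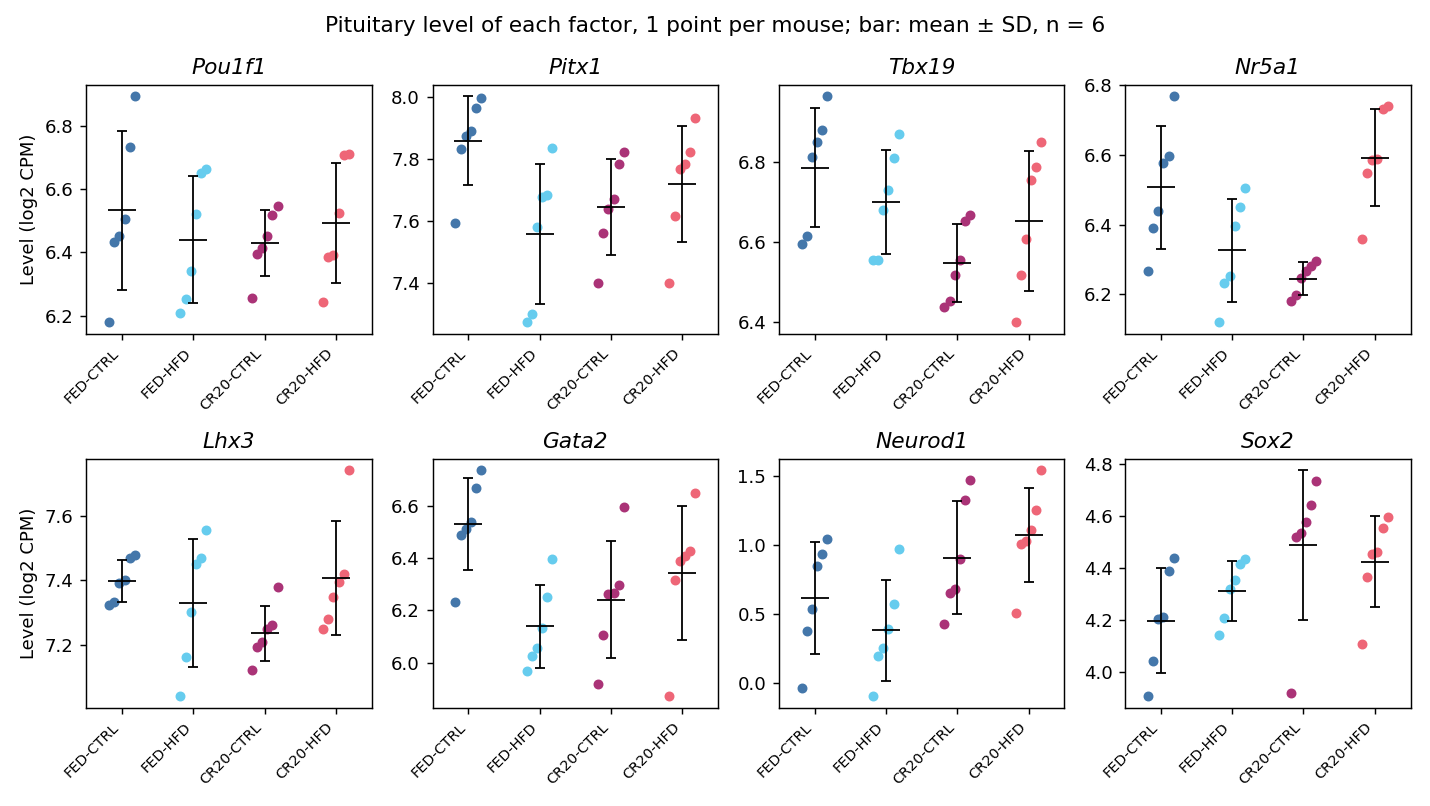
Log2 CPM of each factor in the 4 pituitary groups, 1 point per mouse with the mean and SD (n = 6); the axes differ between panels and do not start at 0. Nr5a1, Gata2 and Pitx1 dip in FED-HFD and CR20-CTRL, whereas Neurod1 and Sox2 have their higher means in the CR20 groups.

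Tbx19 (ENSMUSG00000026572, chromosome 1, 164965422 to 164988362, minus strand), the T-box factor that switches on Pomc in corticotropes and melanotropes, was lowest in CR20-CTRL. Its medians were 114 CPM in FED-CTRL (range 96.5 to 125), 104 CPM in FED-HFD (93.9 to 117), 92.6 CPM in CR20-CTRL (86.5 to 102) and 103 CPM in CR20-HFD (84.2 to 115). The log2FC between dams on CTRL was -0.24 (SE 0.08, 95% interval -0.41 to -0.075, adjusted p = 0.137 by edgeR). On the HFD the difference between CR20 and FED mice was -0.044 (95% interval -0.21 to 0.12), and averaged over diets it was -0.14 (SE 0.06, adjusted p = 0.295 by edgeR).

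Neurod1 (ENSMUSG00000034701, chromosome 2, 79282865 to 79287294, minus strand), the bHLH partner of Tbx19 in corticotropes, was measured with only 17 to 69 counts per library. Its medians were 1.53 CPM in FED-CTRL (range 0.883 to 1.97), 1.16 CPM in FED-HFD (0.843 to 1.87), 1.64 CPM in CR20-CTRL (1.25 to 2.67) and 2.01 CPM in CR20-HFD (1.33 to 2.82). CR20 mice had the higher medians on both diets. The log2FC was 0.73 between dams on HFD (SE 0.24, 95% interval 0.22 to 1.23, adjusted p = 0.530 by edgeR) and 0.52 averaged over diets (SE 0.17, adjusted p = 0.243 by edgeR). The spread between mice, given as edgeR's biological coefficient of variation, was 23.7% for Neurod1 and 10.1% to 13.3% for the other 7. The members differ widely in level. Among tested genes of a like level, the spread of Neurod1 stood only at percentile 33.4. Gata2 stood at 88.2, Pou1f1 at 85.0, Pitx1 at 83.7, Sox2 at 63.9, Lhx3 at 59.6, Tbx19 at 55.4 and Nr5a1 at 50.3.

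Sox2 (ENSMUSG00000074637, chromosome 3, 34704554 to 34706610, plus strand), the HMG-box factor of stem cells, also had the higher medians in CR20 mice. They were 18.4 CPM in FED-CTRL (range 14.9 to 21.6), 20.1 CPM in FED-HFD (17.6 to 21.5), 23.4 CPM in CR20-CTRL (15.0 to 26.6) and 21.9 CPM in CR20-HFD (17.1 to 24.1). In CR20-CTRL, 5 of 6 mice were above all FED-CTRL mice, and mouse 5 at 15.0 CPM was near the lowest of them. The log2FC between dams on CTRL was 0.30 (SE 0.11, adjusted p = 0.167 by edgeR), and 0.37 with an adjusted p of 0.0625 without mouse 5. Averaged over diets it was 0.21 (SE 0.08, adjusted p = 0.278 by edgeR).

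Pou1f1 (ENSMUSG00000004842, chromosome 16, 65317397 to 65331183, plus strand), the POU factor that drives Gh, Prl and Tshb, had the most even medians, 86.4 to 89.1 CPM in the 4 groups. Its log2FC lay between -0.12 and 0.071 in the 4 comparisons, each with a 95% interval that included 0. The interval between dams on CTRL ran from -0.33 to 0.097. FED-CTRL mice spread the most (72.3 to 119 CPM).

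A slope of gene levels on transcript GC content differed in its mean between the control-diet groups, and these values stand beside the differences above. The groups overlapped, with -0.124 to 0.282 in FED-CTRL and -0.181 to 0.070 in CR20-CTRL, and no test between groups was run. The slope was fitted to each gene's log2 CPM minus its mean over the 24 libraries, for 16599 genes with a GC value. Its mean per 10% GC was 0.081 ± 0.13 (SD, n = 6) in FED-CTRL and -0.070 ± 0.090 in CR20-CTRL. In FED-HFD it was -0.0061 ± 0.11 and in CR20-HFD -0.0043 ± 0.046. The members' transcripts ranged from 38.4% GC for Pou1f1 and 44.1% for Neurod1 to 58.1% for Nr5a1, 58.3% for Gata2, 60.3% for Lhx3 and 65.8% for Pitx1. Over the 24 mice, with group means removed, the slope of a library had r = 0.52 to the level of Tbx19, 0.48 to Nr5a1, 0.47 to Pitx1, -0.44 to Pou1f1 and -0.42 to Sox2. Spearman's rho was 0.52, 0.43, 0.41, -0.50 and -0.42 in that order. For the other 3 members, Lhx3, Gata2 and Neurod1, r was 0.18, 0.25 and -0.27. None of the 8 passed after adjustment over the members' slopes (permutation, smallest adjusted p = 0.083 by r and 0.076 by rho). Without the 2 mice farthest from the median slope, r was 0.56 for Tbx19, 0.36 for Nr5a1, 0.29 for Pitx1, -0.35 for Pou1f1 and -0.29 for Sox2. A fit with GC offsets, added after the data had been seen, gives the differences with the slope taken into account.

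With GC content as an offset in edgeR, Nr5a1 had a log2FC of 0.33 between diets in CR20 mice and an interaction of 0.47, with adjusted p-values of 0.483 and 0.375. Its difference between CR20-CTRL and FED-CTRL was -0.18. Gata2 had -0.34 between diets in FED mice and -0.19 between dams on CTRL. Between dams on CTRL, Pitx1 was at -0.097 and Lhx3 at -0.067, against -0.21 and -0.16 without the offset. Pou1f1 went the other way, to -0.35 between dams on CTRL (adjusted p = 0.149 by edgeR), -0.24 between diets in FED mice and 0.44 in the interaction. No member had a smaller adjusted p-value than 0.149 in this fit.

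**Figure D4:**
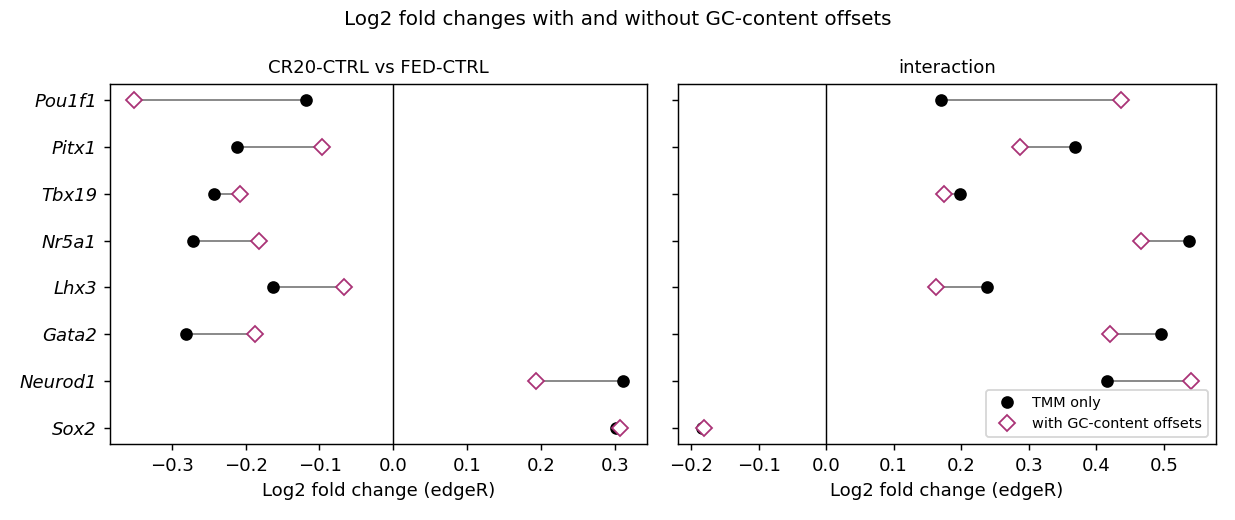
Log2FC of each factor from edgeR with TMM factors only (black points) and with GC-content offsets (open diamonds) between dams on CTRL (left) and the interaction (right). Pou1f1 moves from -0.12 to -0.35 on the left and from 0.17 to 0.44 on the right, while Sox2 stays at 0.30 to 0.31 on the left.

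Levels of the members were compared over the 24 mice after subtracting each group's mean, to ask which factors varied together in mice of the same group. There were 47 pairs, 28 of members and 19 of a member with a gene its factor is known to control or, for Sox2, with Sox9. Of the 47 pairs, 1 passed the adjustment by Pearson's r. Pitx1 and Gata2 had r = 0.75 (permutation p = 0.00013, adjusted p = 0.0061) and Spearman's rho = 0.75 (permutation p = 0.00012, adjusted p = 0.0056). Without the 2 mice farthest from the median of Pitx1, r was 0.69 (adjusted p = 0.048). Within animal numbers under 20 it was 0.93 (n = 11, permutation, adjusted p = 0.135), and at 40 and above it was 0.53 (n = 7, permutation, adjusted p = 1). With log2 CPM adjusted for GC content, r was 0.77 (permutation, adjusted p = 0.061). Within a range the groups held few mice, so shuffling within groups allowed few arrangements and these p-values cannot show that a range lacks the correlation. The sources used here do not explain the animal numbers.

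Nr5a1 had r = 0.56 to Gata2 (permutation, adjusted p = 0.080) and 0.55 to Pitx1 (permutation, adjusted p = 0.128). The corticotrope factors Tbx19 and Neurod1, had r = -0.38 (permutation, adjusted p = 0.311). Of the 28 member pairs, 18 had r above 0 and 10 below 0. The pairs with Pou1f1 had r from -0.30 (Tbx19) to 0.18 (Neurod1).

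**Figure D5:**
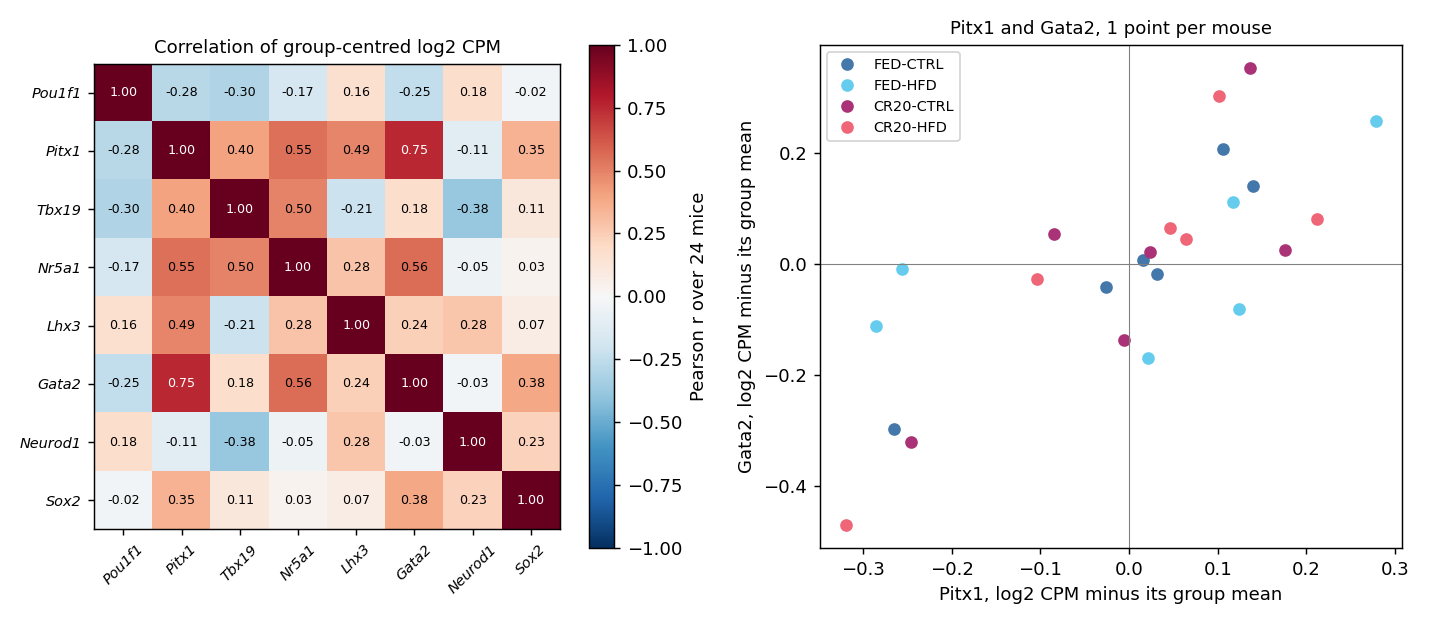
Left, Pearson's r of group-centred log2 CPM between the members over 24 pituitary libraries. Right, Pitx1 against Gata2 for each mouse, coloured by group, with r = 0.75.

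Against the hormone genes, Gata2 varied inversely with Cga, the shared alpha subunit of the glycoprotein hormones. Spearman's rho was -0.68 (permutation p = 0.00058, adjusted p = 0.014) and Pearson's r was -0.59 (permutation p = 0.0026, adjusted p = 0.060). Within animal numbers under 20 r was -0.82 (n = 11, permutation, adjusted p = 0.079), and at 40 and above it was 0.046 (n = 7, permutation, adjusted p = 1). No pair of the 47 passed within either range, and adjusted permutation p-values at 40 and above ran from 0.991 to 1. The groups used there held 2 or 3 mice, and those under 20 held 2 to 4. Shuffling within such groups gives few arrangements, so a pair could hardly pass after adjustment. These p-values therefore do not show whether a range lacks a correlation, and the difference between the ranges was not tested. With log2 CPM adjusted for GC content r was -0.52 (permutation, adjusted p = 0.187). Pou1f1 had r = -0.075 to Gh, -0.21 to Prl, -0.0090 to Tshb and -0.17 to Ghrhr, the receptor for growth hormone-releasing hormone, with adjusted permutation p-values of 0.701 to 0.973. Tbx19 had r = 0.17 to Pomc, the corticotrope hormone precursor, and Sox2 had r = 0.49 to Sox9, another stem cell factor (permutation, adjusted p = 0.311).

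The genes whose group-centred level was most like a member's, among 14491 protein-coding genes tested, are given as a description over 24 libraries that share their depth and GC slope. For Pitx1 they were Cldn9 (r = 0.87), Six2 (0.86) and Rnf126 (0.85), and for Lhx3 Nat14 (0.85), Cdk5r2 (0.83) and Lrrc73 (0.78). For Nr5a1 they were Sod3 (0.81), Ethe1 (0.77) and Zdhhc3 (0.77), and for Gata2 Pld2 (0.78), Prag1 (0.77) and Map7d1 (0.74). Sox2 was most like Mcm8 (0.87), Sox4 (0.84) and Gpc3 (0.84), and Pou1f1 most like Sdcbp (0.79), Ptpro (0.76) and Pdia6 (0.76). Tbx19 was most like Rfxank (0.84), Mrps35 (0.84) and Dnajc11 (0.82), and Neurod1 most like Lnx2 (0.71), Gen1 (0.69) and Nup160 (0.68).

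Of 25 other regulators of pituitary lineages, 22 were tested and 0 were called in any contrast. At an unadjusted p-value under 0.05 they gave 2 genes between dams on CTRL, 3 between dams on HFD, 3 between diets in FED mice, 1 between diets in CR20 mice and 4 in the interaction. Their median log2FC was 0.034, 0.013, -0.014, -0.044 and -0.051 in that order. The shares of all genes at that threshold were 17.3%, 6.77%, 9.64%, 7.28% and 11%. Lhx4, the LIM-homeodomain relative of Lhx3, was measured with 11 to 59 counts and is named for its p-values. Its log2FC was -0.58 between dams on CTRL, -0.73 between diets in FED mice, 0.61 between dams on HFD and 1.19 in the interaction (SE 0.36, adjusted p = 0.314 by edgeR).

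Neurod4, a bHLH factor related to Neurod1, had a log2FC of 0.51 between dams on CTRL (SE 0.15, adjusted p = 0.112 by edgeR), -0.35 between diets in CR20 mice, -0.49 in the interaction and 0.26 averaged over diets. Egr1, an immediate early gene that acts with Nr5a1 in gonadotropes, had -2.12 between dams on HFD and -1.52 averaged over diets. Its counts ran from 199 to 17096 between libraries. The mean log2 CPM of Egr1 was 5.22 ± 1.11 (SD) in CR20-HFD (range 4.12 to 6.98) and 6.44 ± 2.04 in FED-HFD (4.27 to 9.73). These 2 groups overlapped, and their means lay closer together than the log2FC of -2.12. Nr4a1, an orphan nuclear receptor of corticotropes, had 1.32 between diets in FED mice. Notch2, a receptor of progenitor cells, had -0.13 for the diet averaged over dams.

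The 9 genes listed as targets, with the stem cell factor Sox9 among them, were all tested and 0 were called. Fshb, the beta subunit of follicle-stimulating hormone, had a log2FC of 0.31 between dams on CTRL (SE 0.14, adjusted p = 0.257 by edgeR) and -0.43 in the interaction (SE 0.20, adjusted p = 0.446 by edgeR). Cga had 0.31 between diets in FED mice (SE 0.12, adjusted p = 0.382 by edgeR), the comparison in which Gata2 was at -0.39. These were the only targets with an unadjusted p-value under 0.05 in the 7 contrasts.

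Markers of other cells in the gland gave 0 calls as well, and their values stand beside the comparisons of Gata2, Pitx1 and Nr5a1. The summed level of 5 stromal markers was 414 to 588 CPM in FED-CTRL, 375 to 469 CPM in FED-HFD, 413 to 556 CPM in CR20-CTRL and 437 to 572 CPM in CR20-HFD. Of the 5 stromal markers, 3 were lower at an unadjusted p-value under 0.05 between diets in FED mice (median log2FC of the 5 -0.31, 1 above 0). Between dams on HFD 3 were higher (median 0.23, 1 below 0), and in the interaction 3 were higher (median 0.33, with 2 of 5 below 0). The shares of all genes at that threshold were 9.64%, 6.77% and 11%. Col1a1, a collagen gene among these stromal markers, had a log2FC of -0.43, 0.43 and 0.48 in that order. The sum of 5 immune markers was 130.5 to 161 CPM in FED-CTRL, 139 to 204 CPM in FED-HFD, 119 to 164 CPM in CR20-CTRL and 140 to 203 CPM in CR20-HFD. All 5 immune markers had a log2FC above 0 for the HFD in both FED mice (median 0.38, 3 at an unadjusted p-value under 0.05) and CR20 mice (median 0.24, 2 of 5), and 3 of 5 passed that threshold in the averaged diet effect. The shares of all genes were 9.64%, 7.28% and 6.23% in that order.

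Endothelial markers summed to 428 to 554 CPM over all groups, melanotrope and intermediate lobe markers to 606 to 1036 CPM, and pituicyte and posterior lobe markers to 11.4 to 22.0 CPM. Red blood cell genes summed to 837 to 5373 CPM except in FED-HFD mouse 13 at 13924 CPM. The part of these cells in the members' differences was not tested. Without FED-HFD mouse 10, whose library held the adipose markers, the log2FC of Gata2 between diets in FED mice was -0.45, that of Pitx1 was -0.35, and the interaction of Nr5a1 was 0.59.

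In the other tissues only Gata2 passed the filter on low counts, and it was not called. In eWAT its lowest, median and highest counts were 69, 99.5 and 141 in FED-CTRL, 44, 64 and 92 in FED-HFD, 73, 93.5 and 332 in CR20-CTRL, and 89, 99 and 128 in CR20-HFD. The log2FC between dams on HFD was 0.69 (SE 0.37, adjusted p = 0.215 by edgeR), with an exact permutation p of 0.00433 on log2 CPM, and 14.9% of 15964 eWAT genes were called there. Between diets in FED mice it was -0.42 (SE 0.37, adjusted p = 0.503 by edgeR), where 10.5% were called, and 0% were called between dams on CTRL and between diets in CR20 mice. The value of 0.79 between dams on CTRL rested on CR20-CTRL mouse 5 with 332 counts and was 0.15 without it. In liver, with 2 to 26 counts, adjusted p-values were 0.789 to 1.00 by edgeR in the 4 comparisons. Of 13787 liver genes, 0% were called between dams on either diet, 0.109% between diets in FED mice and 0.515% between diets in CR20 mice.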

How the data were processed

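The values are read counts that the authors deposited per Ensembl gene. Per the labels and methods, reads were checked with FastQC, trimmed with Trimmomatic, aligned with STAR to GRCm39 and counted with featureCounts of Subread, without pooling mice. Versions and the strand setting are not given in the sources used here. Names, exon and transcript lengths and transcript GC content came from GENCODE M39 (54749 of 55416 identifiers matched). The study names another release for its reference. Lengths and GC content may therefore differ from those of the annotation that was counted, which bears on CPM per kb and the GC offsets. No 2 libraries of a tissue held identical counts (0 pairs).

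One model with 4 group means was fitted to the 24 libraries of each tissue in edgeR 4.0.16 (R 4.3.3) by filterByExpr, TMM, estimateDisp, glmQLFit and glmQLFTest, and p-values were adjusted by Benjamini-Hochberg over all tested genes. CPM uses TMM factors, and log2 CPM a prior count of 2. Single genes were compared by exact two-sided permutation of 6 against 6 mice. Correlations used 100000 permutations of mice within groups (scipy), adjusted over 47 pairs. Alternatives were DESeq2 1.42.0, limma 3.58.1 voom with quality weights, other scalings and filters, the animal-number range as a covariate, each mouse left out and, added after seeing the data, GC-content offsets. On simulated data with a log2FC of 1 in CR20-HFD vs CR20-CTRL, edgeR recovered 170 of 197 changed genes among 16481, with 5 false calls. In the same data limma voom recovered 165 with 6 false calls, and DESeq2 172 with 17. The largest difference of a member in that comparison was 0.35 (Nr5a1). Recovery of changes that small was not simulated, so these counts do not show how many would be missed.

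The members, lists, motifs and tests were chosen with earlier results of these data known. The text names all 8 members, in each contrast the gene of the other regulators and of the targets with the smallest unadjusted p-value under 0.05 in each direction, and for each member the 3 genes with the highest r. Col1a1, the adipose markers and the overlapping genes were named after their values were seen. The groups hold different mice, and intervals cover the spread between mice.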

Additional observations from a re-analysis of the deposited data

Results flagged for a closer look

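Of 40 groups of 6 mice, 2 held a library far from the others, meaning that its gap to the nearest mouse was over 0.625 of the group's range (Dixon's rule, which flags about 1 group in 20 by chance). CR20-HFD mouse 7 had a log2 CPM of 7.74 for Lhx3 (5244 counts), while the other 5 lay between 7.25 and 7.42. CR20-CTRL mouse 5 had a log2 CPM of 3.92 for Sox2 (301 counts), while the other 5 lay between 4.52 and 4.74. The differences of Lhx3 and Sox2 without these mice are given with the comparisons.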

How the results depend on the processing

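Called members rose from 0 to 1, Nr5a1, with the DESeq2 Wald test between dams on CTRL (adjusted p = 0.032) and in the interaction (adjusted p = 0.032), and with FED-CTRL mouse 42 left out in edgeR between dams on CTRL (range 0 to 1 over the mice left out). The number of all genes called without mouse 42 is not given here. Under voom, members at an unadjusted p-value under 0.05 became 1 between diets in CR20 mice and 1 in the averaged diet effect. Of all 16657 genes, 2222 and 1149 were at that threshold there. With GC offsets the members were 4 between dams on HFD and 1 between diets in CR20 mice. With a mouse left out they ranged from 1 to 2, 0 to 1 and 2 to 4 between diets in CR20 mice, the averaged diet effect and between dams on HFD. The shares of all genes with GC offsets or a mouse left out are not given here, so these counts are not read as results about the members. Pairs correlated after adjustment numbered 2 without the 2 farthest mice, 0 within either animal-number range and 0 with GC adjustment, against 1. The ranges held few mice per group, so the permutation test could hardly pass there, and their 0 is not a result about the pairs. The cause of the other changes was not tested.

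Some values near 0 changed sign. With the animal-number covariate, the averaged maternal effect of Nr5a1 was 0.0034 and the averaged diet effect of Pou1f1 0.031. With GC offsets the averaged maternal effect was 0.047 for Pitx1, 0.051 for Nr5a1, 0.014 for Lhx3 and 0.023 for Gata2. With a mouse left out, that effect ranged from -0.026 to 0.026 for Nr5a1, -0.059 to 0.0017 for Pitx1, -0.083 to 0.0076 for Gata2 and -0.065 to 0.00044 for Pou1f1. The averaged diet effect ranged from -0.12 to 0.016 for Neurod1, -0.022 to 0.047 for Sox2, -0.0057 to 0.040 for Tbx19 and -0.046 to 0.038 for Pou1f1. Between dams on HFD ranged from -0.086 to 0.0039 for Tbx19 and -0.00050 to 0.12 for Lhx3. In eWAT, Gata2 between diets in CR20 mice became 0.16 under voom and ranged from -0.66 to 0.10 with a mouse left out.

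The 4 groups of a tissue hold different mice and share no animal number. Pairing by dam was not possible because the sources used here do not say which mice shared a dam or which dams were paired for feeding.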
